A study of Mus musculus with 16 samples.

Results

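Isoc1, Coasy, Lrrc4b, Shank1, Fblim1, Shroom1, Fut9 and Slco1c1 are 8 mouse genes with unrelated textbook roles that stood out when lumbar dorsal root ganglia without importin α3 were set against other ganglia. They are 8 of the 24421 gene symbols in the count table and lie outside chromosome 3, where the importin α3 gene Kpna4 sits. All 8 were among the 15641 genes that passed the filter on low counts. Slco1c1, with 4 to 10 counts in the importin α3 knockouts, passed it only through other libraries, where it was higher. The 8 genes were chosen by their counts, for the difference of the importin α3 knockouts from 3 references. These were their own wild types, all wild types and the importin β1 knockouts. Those 3 differences are therefore given as descriptions, without a test. The rule for the set also named dependence on embryo maturity, so tests of maturity below are not independent of the choice. In these comparisons "lower" and "higher" refer only to measured levels and to libraries that do or do not overlap.

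The study sequenced polyA RNA from lumbar dorsal root ganglia, which hold the cell bodies of the sensory neurons that serve the hindlimb, of C57BL/6 embryos at embryonic day 13.5. There are 16 libraries, 4 from importin α3 -/- embryos (KO_alpha3), 4 from their wild types (WT_alpha3), 4 with a knockout of the importin β1 3′ UTR (KO_beta) and 4 from the wild types of the importin β1 line (WT_beta). The labels give no allele design, Cre or treatment, and per the design text both projects used all 8 wild types. Because the labels do not say whether libraries came from separate embryos, a p-value here covers the spread among libraries, which may be technical.

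Importin α proteins bind the nuclear localisation signal of a cargo protein and importin β1, which carries the complex through the nuclear pore. Importin α3, made from Kpna4, is 1 of several such adaptors, each with its own cargo preferences. In sensory neurons, importins also take part in carrying signals from the axon to the cell body.

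Library totals ran from 19682595 to 26873361 counts. Kpna4 had 14 to 27 counts in the importin α3 knockouts and 1348 to 2157 in the 12 other libraries, as labelled. Its level was 0.862 ± 0.234 CPM (counts divided by TMM-adjusted library size and put on a common scale; mean ± SD, n = 4) against 76.6 ± 4.38 CPM in the 8 wild types. Genes of sensory neurons, 13 of a list of 14 in the table and none at 0, summed to 12491 to 15907 CPM in the importin α3 knockouts and to 8503 to 16363 CPM in the wild types, so the labelled tissue was present in both. Markers of other tissue were also read, and 12 spinal cord neuron genes, none at 0, summed to 2.45 to 9.06 CPM in the importin α3 knockouts, 7.22 to 107 CPM in the wild types and 2.76 to 23.5 CPM in the importin β1 knockouts. Embryo maturity was read from 2 globins of early red cells, as log2 of Hbb-bh1, which is switched off sooner, over Hbb-y. This globin ratio ran from -7.00 to -3.71 over the 16 libraries. Among the wild types, WT_alpha3 libraries 45 and 79 and WT_beta library 399 stood apart with ratios of -4.79, -4.10 and -5.17, and WT_beta library 401 with the highest spinal cord sum, so values without these 4 libraries are given beside the results. Reads from Y-linked genes were present in all 4 WT_alpha3 and all 4 KO_beta libraries, in KO_alpha3 libraries 50 and 75, and in no WT_beta library.

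Of the 8 genes, 7 had a lower mean level without importin α3 than in the wild types and 1, Coasy, had a higher one. Against all wild types the 8 log2 fold changes had a median of -0.86, where the median over all 15641 genes was -0.0059 and 48.6% of all genes were above 0. Against the line's own wild types the median of the 8 was also -0.86, and against the importin β1 knockouts -0.75. In 7 of 8 genes no importin α3 knockout library overlapped any of the 8 wild types, 6 of them lower and 1 higher, where 0.614% of all genes showed such a separation, 0.416% lower and 0.198% higher. Fblim1 overlapped the wild types. Against the importin β1 knockouts 5 of 8 did not overlap, with 4.57% of all genes, and Lrrc4b, Shank1 and Fut9 did. Set against all 12 other libraries, 4 of 8 did not overlap, namely Isoc1, Shroom1 and Slco1c1 on the low side and Coasy on the high side, and over all genes the share was 0.205%, 0.134% lower and 0.0703% higher. These counts follow from how the genes were chosen, and Slco1c1 passed the filter on low counts only through libraries where it was higher. By the edgeR quasi-likelihood test, 0.00639% of all genes, Kpna4 alone, passed an adjusted p of 0.05 against all wild types and likewise against own wild types, and 0.032%, 5 genes with none of the 8 among them, passed against the importin β1 knockouts.

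**Figure D1:**
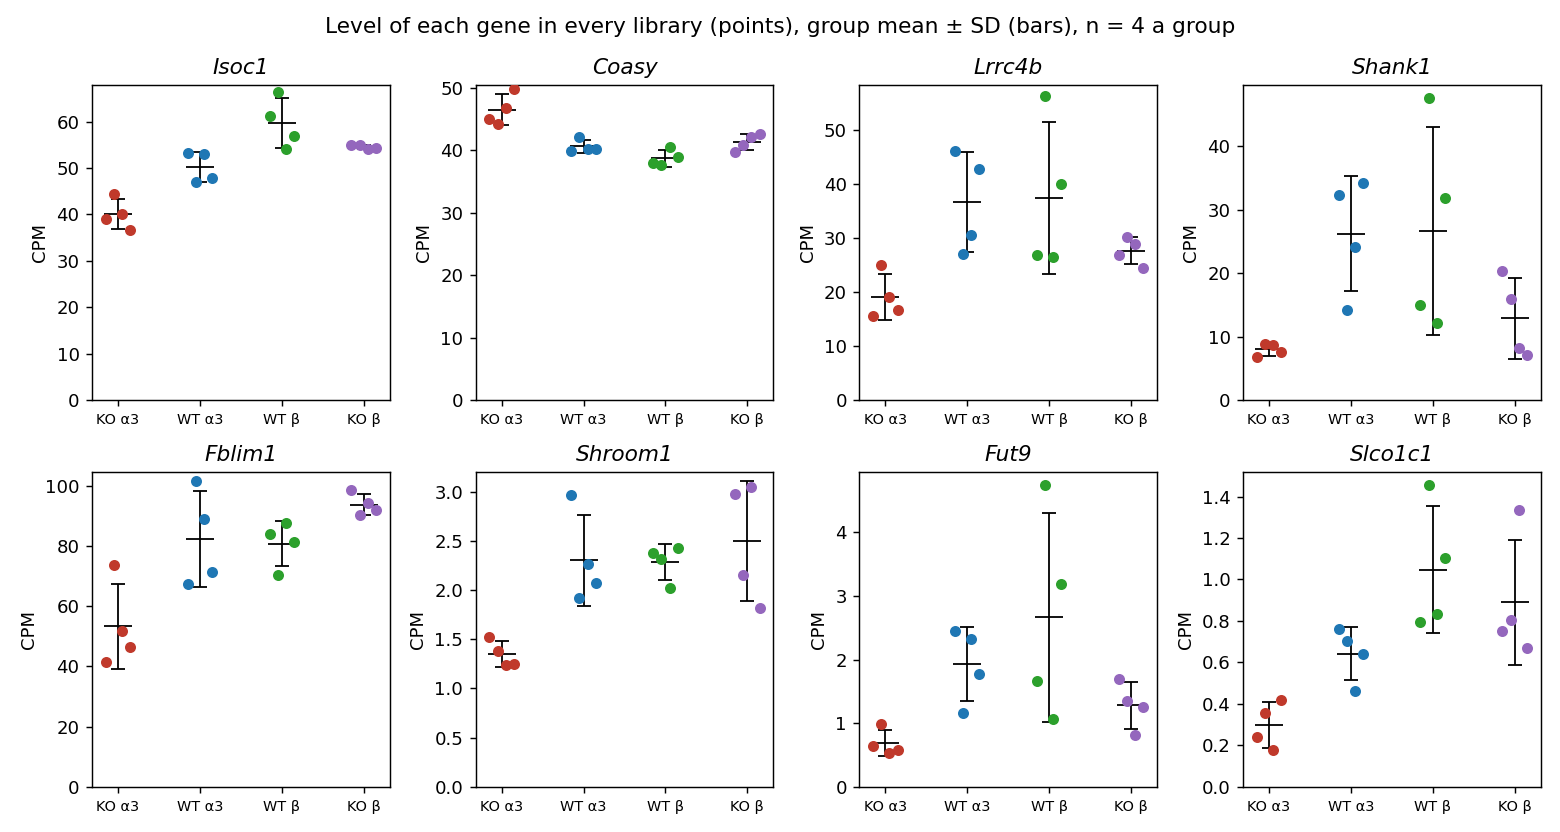
Level of each of the 8 genes in CPM (y axis, from 0) in the 16 libraries, by group (x axis); each point is a library, and bars show the group mean ± SD, n = 4 a group. The importin α3 knockouts sit lowest for Isoc1, Shroom1 and Slco1c1 and highest for Coasy, and overlap the importin β1 knockouts for Lrrc4b, Shank1 and Fut9.

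The metabolic enzymes gave the tightest values. Isoc1 (mm10, chromosome 18, 58659466 to 58680368) encodes a protein with an isochorismatase domain, a fold known from hydrolases of small molecules. Its levels were 39.0, 44.3, 40.2 and 36.7 CPM in KO_alpha3 libraries 42, 50, 75 and 81, and 53.2, 47.0, 52.9 and 47.8 CPM in WT_alpha3 libraries 45, 54, 55 and 79. WT_beta libraries 399, 401, 410 and 415 gave 61.2, 66.4, 54.2 and 57.0 CPM, and KO_beta libraries 398, 402, 406 and 411 gave 54.9, 55.0, 54.1 and 54.4 CPM. The highest importin α3 knockout thus lay below the lowest of the 12 others, and the 4 importin β1 knockouts were nearly equal. The mean was 40.1 ± 3.18 CPM (SD, n = 4) against 55.0 ± 6.50 CPM in the 8 wild types, a log2 fold change of -0.46 ± 0.08 (SE), or a level 72.9% of theirs. Against the line's own wild types the log2 fold change was -0.33 ± 0.07, and against the importin β1 knockouts -0.45 ± 0.07.

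Coasy (chromosome 11, 101082565 to 101086619) encodes the enzyme that carries out the last steps of coenzyme A synthesis. KO_alpha3 libraries 42, 50, 75 and 81 had 45.1, 44.3, 46.9 and 49.9 CPM, and the WT_alpha3 libraries, in the order given for Isoc1, had 40.0, 42.1, 40.3 and 40.3 CPM. The WT_beta libraries had 37.9, 37.6, 40.6 and 38.9 CPM and the KO_beta libraries 39.7, 40.8, 42.2 and 42.6 CPM. All 4 importin α3 knockouts were above the other 12, the closest pair being 44.3 and 42.6 CPM. The difference was the smallest of the 8 in size, 46.5 ± 2.47 against 39.7 ± 1.49 CPM in the 8 wild types, or a log2 fold change of 0.23 ± 0.05, with 0.20 ± 0.05 against own wild types and 0.17 ± 0.05 against the importin β1 knockouts. Other coenzyme A genes had log2 fold changes on both sides of 0 against all wild types: the pantothenate kinases Pank1, Pank2 and Pank3 had 0.0017 ± 0.09, 0.07 ± 0.05 and 0.05 ± 0.10, the next enzyme Ppcs -0.13 ± 0.12, the vitamin transporter Slc5a6 -0.07 ± 0.13 and the kinase Dcakd 0.17 ± 0.18.

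Within groups, Shank1 varied most of the 8 between libraries, with an SD of 0.66 on the log2 scale, and Lrrc4b, the other postsynaptic gene, had 0.36. Lrrc4b encodes an adhesion molecule of the postsynaptic membrane that binds receptor phosphatases of the LAR family, and Shank1 encodes a scaffold of the postsynaptic density. Both are on the plus strand of chromosome 7, Shank1 at 44310253 to 44360572 and Lrrc4b at 44429018 to 44463351, with 68.4 kb between them. Shank1 overlaps 1700008O03Rik on the other strand, whose mean was 0.388 CPM, and since the strand setting of the counting is not given in the sources used here, reads from their shared exons cannot be told apart.

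Shank1 measured 6.79, 8.88, 8.71 and 7.52 CPM in the importin α3 knockouts and 32.3, 14.3, 24.2 and 34.1 CPM in their own wild types. The second line's wild types had 15.03, 47.6, 12.1 and 31.8 CPM and the importin β1 knockouts 20.3, 16.0, 8.15 and 7.06 CPM. The knockouts of importin α3 were low and close together, while the wild types spread widely and importin β1 knockout libraries 406 and 411 fell within the range of the importin α3 knockouts. The means were 7.98 ± 0.994 CPM without importin α3, 26.4 ± 12.3 CPM in the 8 wild types and 12.9 ± 6.34 CPM in the importin β1 knockouts. The log2 fold change was -1.73 ± 0.39 against all wild types, -1.72 ± 0.44 against own wild types and -0.69 ± 0.43 against the importin β1 knockouts.

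Lrrc4b showed the same order with a smaller difference. Its levels were 15.6, 25.0, 19.2 and 16.7 CPM without importin α3, 46.2, 27.1, 30.7 and 42.8 CPM in WT_alpha3, 26.9, 56.3, 26.5 and 40.1 CPM in WT_beta and 26.9, 30.2, 28.97 and 24.5 CPM in KO_beta. Importin α3 knockout library 50, at 25.0 CPM, lay just above the lowest importin β1 knockout and below every wild type. The log2 fold change was -0.96 ± 0.21 against all wild types, -0.94 ± 0.24 against own wild types and -0.53 ± 0.24 against the importin β1 knockouts. Syt3, a synaptotagmin gene that lies between the pair, had a log2 fold change of -0.90 ± 0.30 at a mean of 2.87 CPM, and on the far side of Lrrc4b Aspdh had -1.66 ± 0.55 at 0.561 CPM and 5430431A17Rik -2.37 ± 0.65 at 2.38 CPM. Before Shank1, 1700028J19Rik had -0.71 ± 0.23 at 0.498 CPM. Lower values were thus not limited to the pair, while Josd2, Emc10 and Nr1h2, in the same stretch, had 0.03, 0.03 and 0.01. These neighbours were chosen after their values were seen.

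Fut9 (chromosome 4, minus strand, 25609332 to 25800244) encodes a fucosyltransferase that makes the Lewis x carbohydrate on neural surface glycans. Its counts were low, 12 to 22 in each importin α3 knockout and 17 to 127 in the others. The levels were 0.639, 0.982, 0.530 and 0.585 CPM in KO_alpha3, 2.44, 1.17, 2.32 and 1.77 CPM in WT_alpha3, 1.66, 4.74, 1.07 and 3.18 CPM in WT_beta and 1.69, 1.35, 0.810 and 1.26 CPM in KO_beta. As for Shank1, WT_beta library 401 was the highest of all and the importin β1 knockouts reached down into the importin α3 knockouts. The log2 fold change was -1.74 ± 0.39 against all wild types, -1.49 ± 0.42 against own wild types and -0.91 ± 0.43 against the importin β1 knockouts.

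Slco1c1 (chromosome 6, 141524368 to 141570177) encodes a transporter of thyroxine and organic anions known from brain capillaries. It had the fewest reads of the 8, with 6, 8, 4 and 10 counts in KO_alpha3 libraries 42, 50, 75 and 81 and 9 to 39 counts in each other library. The levels were 0.240, 0.357, 0.177 and 0.418 CPM without importin α3, 0.761, 0.701, 0.464 and 0.640 CPM in WT_alpha3, 0.793, 1.46, 0.833 and 1.10 CPM in WT_beta and 0.753, 0.804, 1.33 and 0.670 CPM in KO_beta. All 4 knockouts were below the other 12, but the closest pair, at 0.418 and 0.464 CPM, rests on 10 and 9 counts in libraries of different depth. The log2 fold change was -1.49 ± 0.34 against all wild types, -1.10 ± 0.33 against own wild types and -1.56 ± 0.33 against the importin β1 knockouts. Endothelial and pericyte markers were 12 of 12 in the table, with none at 0. They summed to 490 to 569 CPM in the importin α3 knockouts and to 461 to 655 CPM in the wild types. The part of such cells in the Slco1c1 difference was not tested.

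Among the cytoskeletal genes, Fblim1 (chromosome 4, minus strand, 141576062 to 141606096) encodes migfilin, an adaptor that links filamin to integrin adhesions. It measured 41.4, 73.6, 51.8 and 46.5 CPM in KO_alpha3 and 67.2, 101, 88.8 and 71.2 CPM in WT_alpha3. WT_beta had 84.0, 70.3, 87.4 and 81.3 CPM and KO_beta 98.5, 90.1, 94.3 and 91.8 CPM. Knockout library 50 lay among the wild types and the other 3 knockouts below all of them, while no importin α3 knockout overlapped the importin β1 knockouts. The log2 fold change was -0.61 ± 0.14 against all wild types, -0.62 ± 0.16 against own wild types and -0.81 ± 0.16 against the importin β1 knockouts, the last having the highest mean of the 4 groups at 93.7 ± 3.61 CPM.

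Shroom1 (chromosome 11, 53457205 to 53467766) belongs to a family of actin-binding proteins that shape cells by recruiting contractile actomyosin. Its levels were 1.52, 1.38, 1.24 and 1.25 CPM without importin α3 (28 to 38 counts), 2.96, 1.92, 2.27 and 2.07 CPM in WT_alpha3, 2.38, 2.31, 2.02 and 2.43 CPM in WT_beta and 2.98, 2.16, 3.05 and 1.81 CPM in KO_beta. The knockouts lay below all others, 1.35 ± 0.131 against 2.30 ± 0.325 CPM in the 8 wild types. Their SD in CPM was the smallest of the 4 groups, at the lowest mean, with 2.29 ± 0.182 CPM in WT_beta. The log2 fold change was -0.77 ± 0.17 against all wild types, -0.77 ± 0.20 against own wild types and -0.89 ± 0.20 against the importin β1 knockouts. An antisense gene, Gm12212, overlaps 1 of its exons and is not a row of the count table.

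RefSeq promoter windows of GRCm38.p6 (250 bases before to 50 after a start) were matched for Fblim1 (2 starts), Slco1c1 and Lrrc4b. They are shown because these genes have different start regions although all were lower, and each line below gives a stretch upstream of a start, 5′ to 3′ on the gene's strand, with the motif in capitals. The Fblim1 GC box stretch is chr4:141600080-141600109 on the minus strand, inside the gene but in no annotated exon, with the motif 99 bases before an internal start. The Fblim1 CCAAT stretch is chr4:141600154-141600183 on the minus strand, also in no exon, with the motif 173 bases before that start. The Slco1c1 CCAAT stretch is chr6:141524178-141524207 on the plus strand, outside annotated genes, with the motif 164 bases before the start.
Fblim1 GC box: ccccagcccgccCCGCCCctccccggtgca
Fblim1 CCAAT box: ccctctccaccaATTGGggcaggtggagcc
Slco1c1 CCAAT box: gctggaagactgATTGGaaggagaagggga
The motifs searched, on both strands, were GGGCGG with its complement CCGCCC, then CCAAT with its complement ATTGG, then TATAAA with its complement TTTATA, then the palindrome CACGTG. They occur in 35.7%, 37.4%, 13.6% and 7.15% of the 32851 windows of this length. The Lrrc4b window, 44442237 to 44442536 on chromosome 7, also belongs to an internal start, since the gene begins at 44429018. It held 8 CG dinucleotides and none of the motifs, as did the first Fblim1 window. The internal Fblim1 window held 13 CG, 2 GC box matches and 2 CCAAT box matches. The 2 GC box matches overlap by 1 base within the stretch shown. The 2 CCAAT matches are 1 palindromic site in the stretch shown, matched once on each strand. The Slco1c1 window held 1 CG, 1 CCAAT box, 1 TATAAA and 1 CACGTG, with a median of 7 CG over all windows. No motif was shared by all 3 genes, and a match is a description of letters only.

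In the 12 libraries that are no importin α3 knockouts, Shank1, Lrrc4b and Fut9 rose with spinal cord neuron genes and Fblim1 fell. The mean log2 level of the spinal cord list, from the 11 of its 12 genes past the filter, was compared with that of each of the 8 genes. With the globin ratio this made 16 relations over these 12 libraries, computed after the data had been seen and adjusted together. The share of all genes past the same threshold was not computed, so the share with an r as far out is given by gene. For Shank1, Pearson's r was 0.959 (permutation p = 1e-05, the smallest the permutations can give, adjusted p = 0.00016) and Spearman's rank correlation 0.986 (permutation p = 1e-05). Lrrc4b gave r = 0.900 (permutation p = 4e-05, adjusted 0.00032) and Spearman's correlation = 0.923 (p = 9e-05), and Fut9 r = 0.800 (p = 0.00173, adjusted 0.00923) and Spearman's correlation = 0.881 (p = 0.00029). Without WT_beta library 401 and KO_beta library 411, the 2 farthest from the median of the spinal cord list, r was 0.921, 0.873 and 0.771, and within the 8 libraries of the second line 0.960, 0.885 and 0.866. The first line had 4 such libraries, too few for its own r. Over all 15641 genes, 0.0767% had an r with the list as high as Shank1, 0.313% as high as Lrrc4b and 1.04% as high as Fut9.

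Fblim1 ran the other way, with r = -0.764 (permutation p = 0.00397, adjusted 0.0159) and Spearman's correlation = -0.713 (p = 0.0118), r = -0.762 without those 2 libraries and -0.720 in the second line, and 0.985% of all genes had an r as low. Coasy had r = -0.705 (permutation p = 0.0106, adjusted 0.0284) and Spearman's correlation = -0.664, whose adjusted p of 0.0599 missed 0.05. Its r was weaker, -0.438, without the 2 libraries, so the relation over the 12 rests on them. It was -0.820 within the second line and -0.804 after group means were removed, but both values include those 2 libraries. Of all genes, 3.65% had an r as low as that of Coasy. The remaining genes, Isoc1, Shroom1 and Slco1c1, had r of 0.244, 0.280 and 0.216, none passing. Without the 2 libraries their r was -0.125, 0.083 and -0.270. Within the second line, which holds both of those libraries, their r was 0.746, 0.289 and 0.6005. With group means removed over the 12 libraries it was 0.521, 0.438 and 0.444. These values are given without a test, so a relation within groups is shown neither to be present nor to be absent. In bulk tissue, fewer cells of a type and less RNA per cell cannot be told apart.

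**Figure D2:**
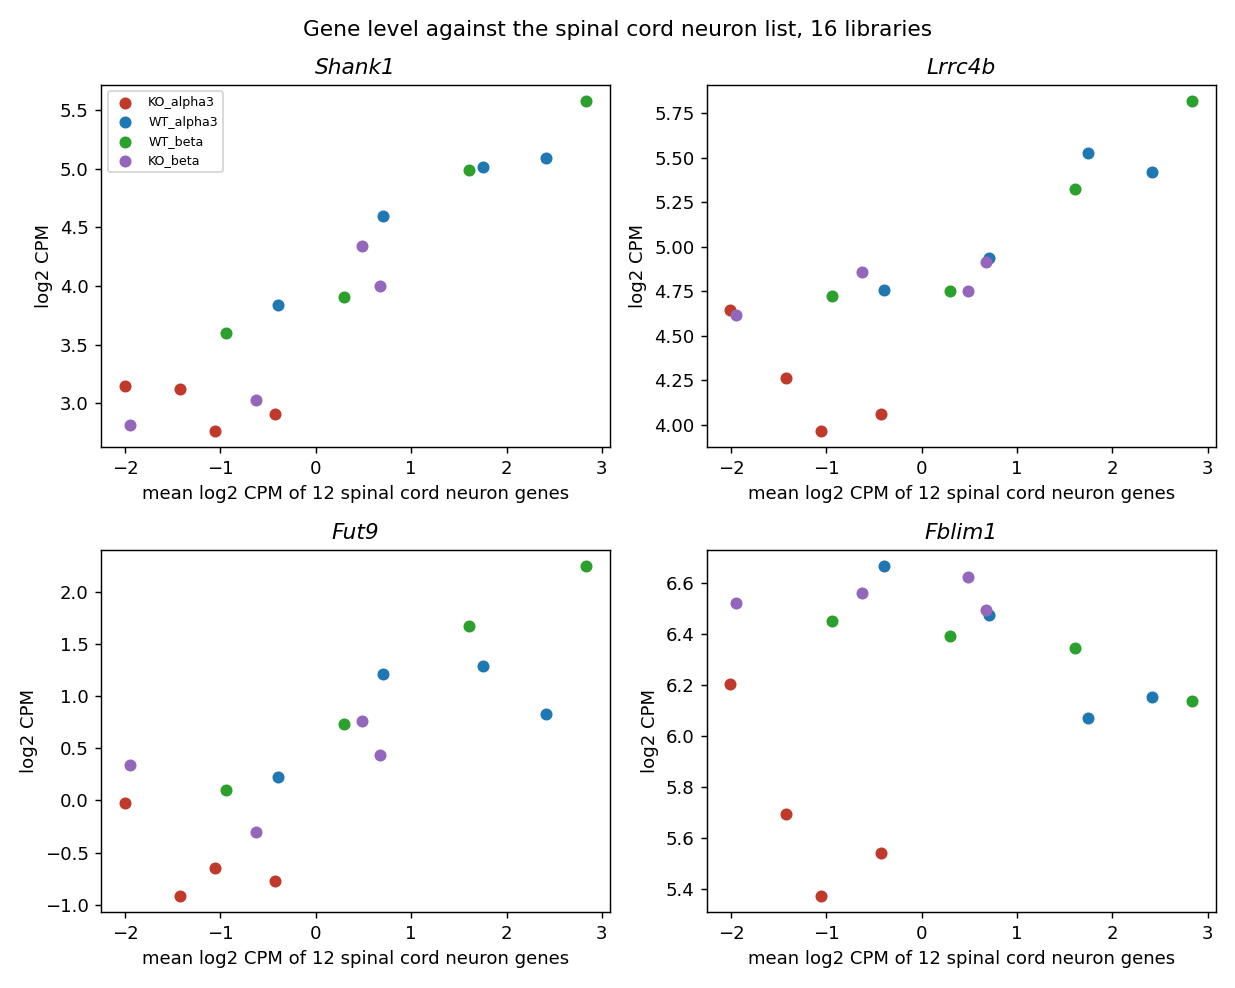
Log2 CPM of Shank1, Lrrc4b, Fut9 and Fblim1 (y axes) against the mean log2 CPM of spinal cord neuron genes (x axis) in the 16 libraries. The mean is over the 11 of 12 listed genes past the filter, although the axis label says 12. Each point is a library, coloured by group. Shank1, Lrrc4b and Fut9 rise with the list in the 12 libraries with importin α3 (r of 0.959, 0.900 and 0.800) and Fblim1 falls (r = -0.764), while the importin α3 knockouts lie in the lower part of its range.

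The same marker list differed between the groups compared. It summed to 6.35, 2.45, 4.02 and 9.06 CPM in KO_alpha3 libraries 42, 50, 75 and 81, to 47.7, 9.82, 23.0 and 94.8 CPM in WT_alpha3, to 17.3, 107, 7.22 and 41.4 CPM in WT_beta and to 23.5, 19.5, 8.72 and 2.76 CPM in KO_beta. Every importin α3 knockout was below 7 of the 8 wild types, WT_beta library 410 at 7.22 CPM being the exception, and WT_beta library 401, highest for Shank1, Lrrc4b and Fut9, was highest here too. With the list as a covariate, an alternative added after the data had been seen, the log2 fold changes against all wild types were -0.46 ± 0.24 for Shank1, -0.45 ± 0.21 for Lrrc4b and -0.86 ± 0.41 for Fut9. Those of Isoc1, Coasy, Shroom1 and Slco1c1 were -0.42 ± 0.11, 0.19 ± 0.06, -0.58 ± 0.22 and -1.18 ± 0.41, and Fblim1 moved away from 0 to -0.88 ± 0.15. Against the importin β1 knockouts Shank1 came to -0.12 ± 0.23 with this covariate. Because the list was itself lower in the importin α3 knockouts, its part in these differences was not tested. Other lists with a median log2 fold change below -0.2 without importin α3 were skeletal muscle (12 genes, 23.9 to 200 CPM without importin α3 and 78.6 to 904 CPM in the wild types), spinal cord radial glia (10 genes, 38.9 to 54.1 and 46.4 to 127 CPM), epidermis (10 genes, 9.57 to 70.6 and 36.8 to 102 CPM), sympathetic ganglion (10 genes, 285 to 507 and 358 to 850 CPM), liver (8 genes, 16.7 to 119 and 23.2 to 4870 CPM), macrophage (10 genes, 62.5 to 98.4 and 84.7 to 175 CPM) and fibroblast and meninges (10 genes, 1330 to 2479 and 2125 to 3360 CPM), none with a gene at 0 in all libraries, and their part was not tested. Red cell genes, 9 of 12 above 0 and Hba-a1, Hba-a2 and Hbb-bt at 0, summed to 706 to 2807 and 380 to 10373 CPM, and their part was not tested either.

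Dependence on embryo maturity was tested in the same 12 libraries as the log2 change per doubling of the Hbb-bh1 to Hbb-y ratio, so a positive slope means a higher level in earlier embryos. Over all genes 41.1% passed an adjusted p of 0.05, 19.4% higher and 21.7% lower in earlier embryos, and 1 of the 8 genes did. The rule for the set named maturity, and these libraries entered the choice, so this count is not an independent result. That gene was Fblim1, with a slope of -0.12 ± 0.04 (SE, edgeR adjusted p = 0.0392). It was 101 and 88.8 CPM in WT_alpha3 libraries 54 and 55, at ratios of -6.93 and -6.71, and 67.2 and 71.2 CPM in libraries 45 and 79, at -4.79 and -4.10. The slope rested on the libraries that stood apart: without WT_alpha3 45 and 79 and WT_beta 399 and 401 it was 0.017 (edgeR adjusted p = 0.988). The call was also lost on leaving out any 1 WT_alpha3 library, WT_beta library 410 or KO_beta library 402. Within the second line, r between Fblim1 and the ratio was -0.229, against -0.702 over the 12 libraries (permutation p = 0.00987, adjusted 0.0284).

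The other 7 genes had slopes from -0.02 to 0.37 and did not pass. Shank1 had 0.37 ± 0.22 (edgeR adjusted p = 0.204) and Lrrc4b 0.20 ± 0.11 (edgeR adjusted p = 0.161), and both passed once WT_beta library 399 was left out, at 0.53 (edgeR adjusted p = 0.0352) and 0.31 (edgeR adjusted p = 0.00846). Shroom1 had 0.13 ± 0.10, Fut9 0.13 ± 0.23, Slco1c1 0.06 ± 0.16, Isoc1 0.03 ± 0.03 and Coasy -0.02 ± 0.02, with edgeR adjusted p from 0.333 to 0.767. Isoc1 and Coasy had the smallest errors of the 8, but their relation to the ratio depended on the libraries used. Their r with it over the 12 libraries was -0.052 and -0.407 (adjusted permutation p = 0.87 and 0.331). Without WT_alpha3 libraries 45 and 79 it was 0.666 and -0.720, and within the second line 0.607 and -0.692, given without a test. Dependence on maturity is thus not shown to be absent for these 2 genes.

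The globin ratios of the importin α3 knockouts lay at -5.10, -6.81, -6.03 and -3.71 in libraries 42, 50, 75 and 81, against -6.93 to -4.10 in the wild types. Among these 4 libraries 5 of the 8 genes, Isoc1, Lrrc4b, Shank1, Fblim1 and Fut9, were highest and Coasy was lowest in library 50, the one with the lowest ratio. Isoc1 was lower the higher the ratio in all 4. Whether the slope within the importin α3 knockouts differed from that in the other libraries was tested for each gene, and none of the 8 passed, with 0.0256% of all genes called. This test used the 4 knockout libraries on which the genes were chosen, so it is not independent of that choice. The difference of slopes was -0.11 ± 0.05 for Isoc1 (edgeR adjusted p = 0.356), 0.08 ± 0.04 for Coasy (edgeR adjusted p = 0.348) and -0.38 ± 0.17 for Lrrc4b (edgeR adjusted p = 0.306), the largest 3 relative to their errors. With the ratio as a covariate the differences from all wild types stayed close to those without it: -0.44 for Isoc1, 0.23 for Coasy, -0.96 for Lrrc4b, -1.77 for Shank1, -0.55 for Fblim1, -0.79 for Shroom1, -1.73 for Fut9 and -1.504 for Slco1c1.

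**Figure D3:**
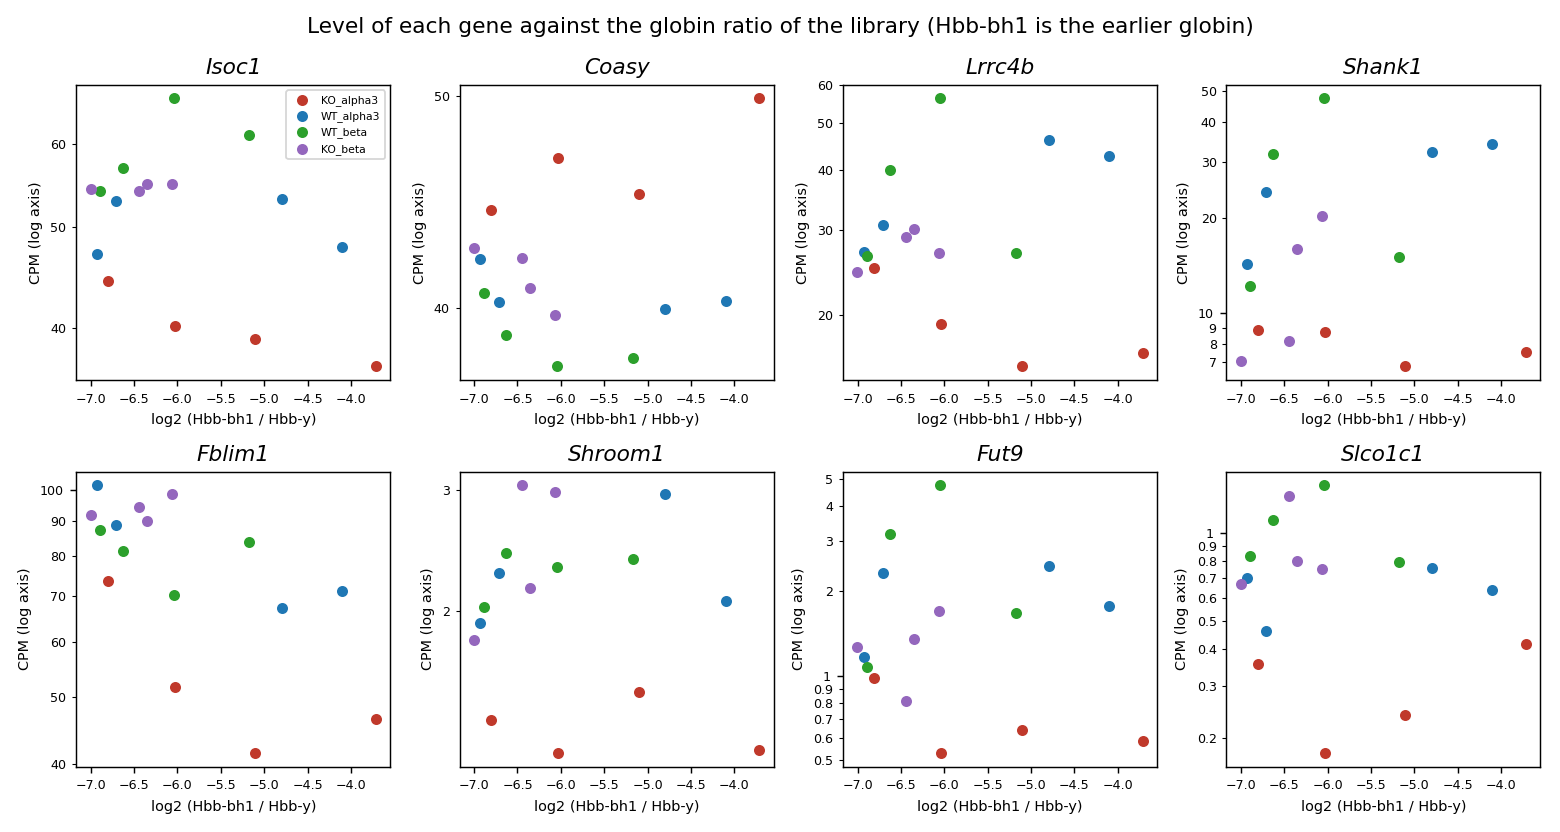
CPM of each gene (y axis, log scale) against log2 of the Hbb-bh1 to Hbb-y ratio (x axis, higher in earlier embryos); each point is 1 of 16 libraries, coloured by group. The importin α3 knockouts lie below all other libraries for Isoc1, Shroom1 and Slco1c1 and above them for Coasy. The groups are not matched for the ratio: KO_beta runs from -7.00 to -6.06 only. KO_alpha3 library 81, at -3.71, lies beyond the highest other ratio, -4.10. Fblim1 is lower at high ratios in WT_alpha3.

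Leaving out the 4 wild-type libraries that stood apart changed no sign. The log2 fold changes against the remaining 4 wild types were -0.38 for Isoc1, 0.22 for Coasy, -0.69 for Lrrc4b, -1.35 for Shank1, -0.74 for Fblim1, -0.66 for Shroom1, -1.48 for Fut9 and -1.36 for Slco1c1. Presence of Y-linked reads split the importin α3 knockouts into 2 and 2. Among libraries with such reads, knockouts 50 and 75 against WT_alpha3, the 8 values were -0.26, 0.16, -0.74, -1.58, -0.39, -0.82, -1.35 and -1.26 in the same gene order. Among libraries without them, knockouts 42 and 81 against WT_beta, they were -0.63, 0.32, -1.19, -1.87, -0.85, -0.70, -2.09 and -1.64. The sign was the same in both subsets for all 8 genes. The size for Isoc1, Coasy, Lrrc4b, Fblim1 and Fut9 was over 1.5 times larger in the second subset. There the knockouts had the higher globin ratios, and the wild types were WT_beta in place of WT_alpha3. Maturity, line and Y-linked reads cannot be told apart between the subsets, and the difference between them was not tested.

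**Figure D4:**
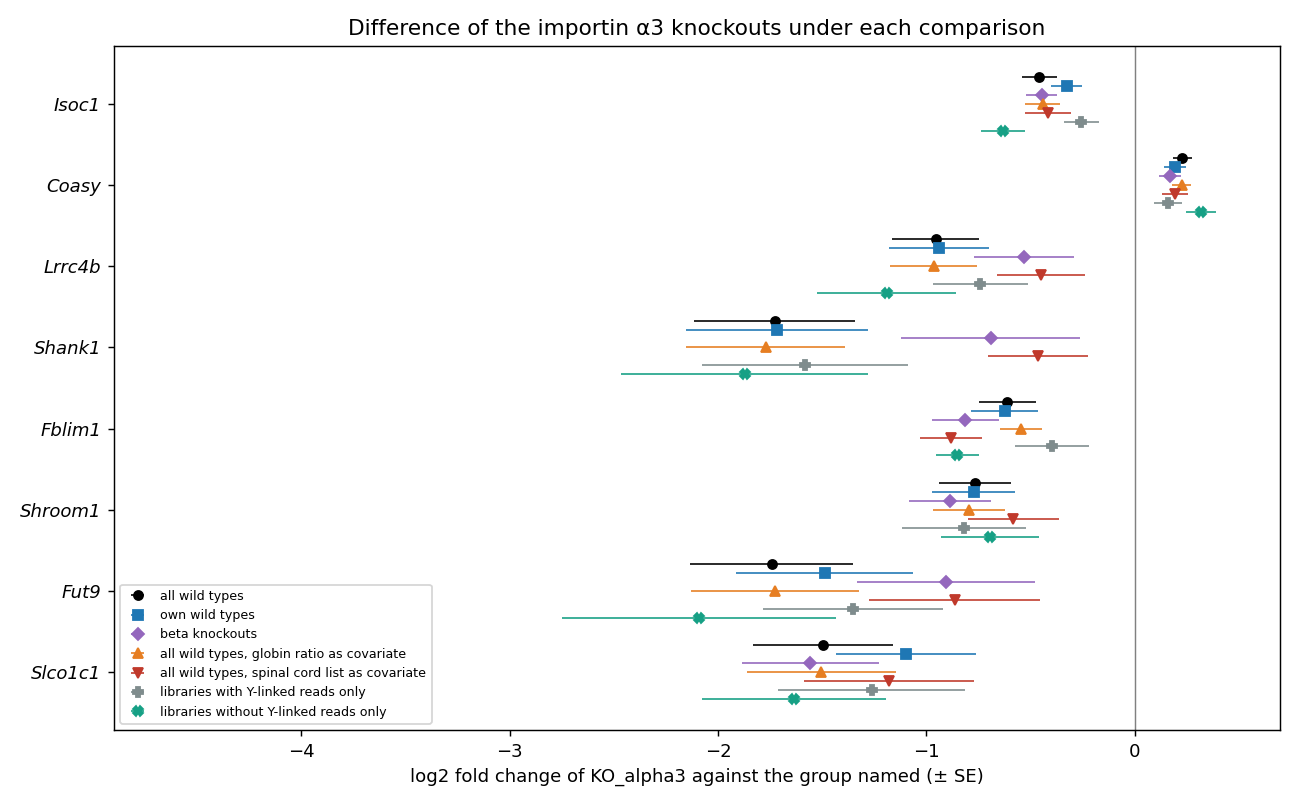
Log2 fold change of the importin α3 knockouts (x axis) ± SE for each gene (y axis) against each reference group, with the covariates and library subsets named in the key. All points lie on 1 side of 0 for a given gene, and those of Shank1, Lrrc4b and Fut9 lie nearest 0 with the spinal cord list as a covariate or against the importin β1 knockouts.

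Comparisons between groups other than the importin α3 knockouts were tested, and none of the 8 genes passed in either. Both fits used all 16 libraries, so the importin α3 knockouts entered the filter, the scaling and the estimate of the spread. The wild types of both lines also entered the choice of the 8 genes. Between the wild types of the lines, where 0.0192% of all genes were called, Isoc1 was 50.3 ± 3.27 CPM in WT_alpha3 and 59.7 ± 5.34 CPM in WT_beta, a log2 difference of -0.25 ± 0.07 (edgeR adjusted p = 0.753). Slco1c1 was 0.641 ± 0.128 and 1.05 ± 0.306 CPM, a difference of -0.70 ± 0.31 (edgeR adjusted p = 0.929). For Fut9 the difference was -0.47 ± 0.40, and for the other 5 genes it lay between -0.03 and 0.07.

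Between the importin β1 knockouts and the wild types of their line, which also entered the choice of the 8 genes, 0% of all genes passed by edgeR (325 had an unadjusted p under 0.05, and DESeq2 called 5). Shank1 had a log2 fold change of -1.05 ± 0.43 (edgeR adjusted p = 0.9999), Fut9 -1.05 ± 0.41 (edgeR adjusted p = 0.9999) and Lrrc4b -0.44 ± 0.24. The 5 others were -0.13 ± 0.07 for Isoc1, 0.09 ± 0.05 for Coasy, 0.21 ± 0.16 for Fblim1, 0.13 ± 0.19 for Shroom1 and -0.24 ± 0.30 for Slco1c1. For Shank1, Fut9 and Lrrc4b the spinal cord list is given beside the result: 2.76 to 23.5 CPM in the importin β1 knockouts, and in WT_beta 107 and 41.4 CPM in libraries 401 and 415 but 17.3 and 7.22 CPM in libraries 399 and 410, within the range of the knockouts. Its part was not tested.

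Within groups, after each group's mean was removed, the genes fell into pairs that varied together over the 16 libraries, given as a description. Shank1 and Fut9 had r = 0.835, Lrrc4b and Shank1 0.793, and Lrrc4b and Fut9 0.752. Isoc1 and Coasy varied oppositely at r = -0.748, Isoc1 with Fut9 gave 0.708 and Isoc1 with Lrrc4b 0.622. Fblim1 stood apart from the rest, with r from -0.310 to 0.106.

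**Figure D5:**
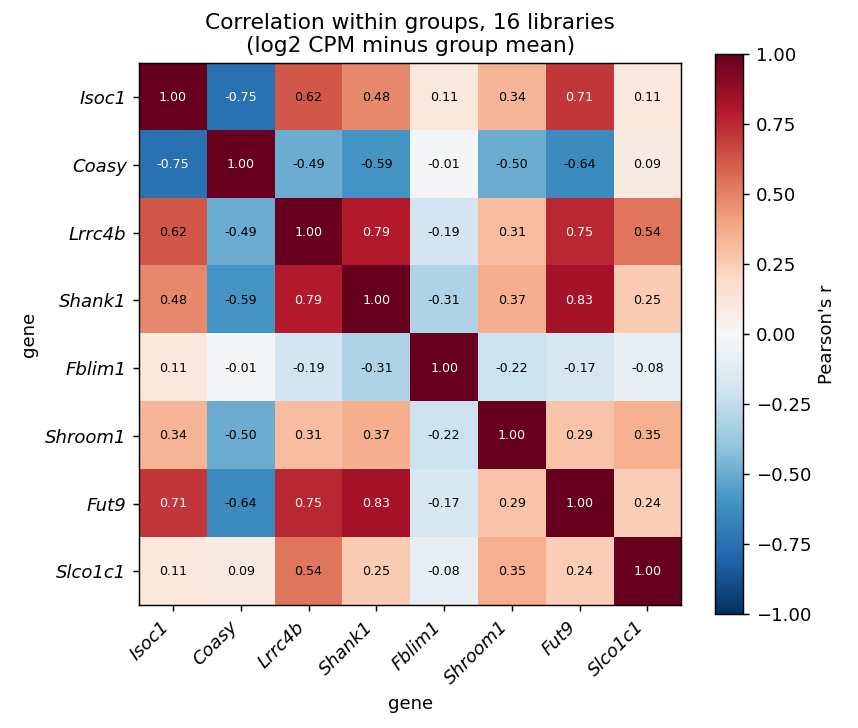
Pearson's r between the 8 genes over 16 libraries, from log2 CPM minus the group mean (both axes list the genes; colour runs from -1 to 1). Shank1, Fut9 and Lrrc4b form a block of high positive values, Isoc1 and Coasy are opposed at -0.748, and the Fblim1 row is close to 0.

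The genes whose within-group pattern was most like each of the 8, among 13417 with a mean of at least 1 CPM, were also read. For Shank1 they were Frmd5 (r = 0.928), Lhx1 (0.919), a transcription factor of spinal interneurons that is on the spinal cord list, and Ankrd23 (0.915). Fut9 was most like Chl1 (0.918), Slc1a1 (0.910) and Usp29 (0.897), and Lrrc4b like Myl6b (0.873), Fam221a (0.867) and Unc5a (0.866). Fblim1 was most like Comtd1 (0.949), Psen2 (0.940) and Abcb9 (0.939). Isoc1 was most like Eno3 (0.882), Pnmal2 (0.868) and Prrt4 (0.851), and Coasy like Arih1 (0.866), Hmgxb3 (0.862) and Gpr19 (0.818). Shroom1 had Tmem242 (0.806), Fgf9 (0.800) and Cisd2 (0.779), and Slco1c1 had Foxf2 (0.834), Creb3l4 (0.805) and Rac1 (0.769). These are the highest of many values over 16 libraries that share depth and tissue.

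The pathways around the 8 genes were read through lists of their partners. Against all wild types, the median log2 fold change of the importin α3 knockouts was 0.0058 over 9 coenzyme A genes, 0.020 over 8 Lrrc4 family members and ligands, -0.010 over 14 Shank scaffold genes, -0.030 over 15 filamin and integrin adaptors, 0.041 over 10 Shroom and actomyosin genes, -0.026 over 10 fucosylation genes and -0.26 over 15 thyroid hormone and organic anion transport genes, each list with its member included. The 3 isochorismatase genes had 0.0037. So the partners of 7 of the 8 genes were centred close to the median of all genes, and only the transport list lay lower, with Ttr at -2.71 ± 1.28 and Slc16a10 at -0.996 ± 0.63 but also Slco4a1 at 0.83 ± 0.31. Ttr is also on the liver marker list, which had a median of -3.03 in this comparison. That list summed to 4870 CPM in WT_beta library 399, and its part in the Ttr value was not tested. No gene of these lists passed in that comparison, between the wild types of the lines or in the importin β1 comparison.

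With maturity, where 41.1% of all genes passed, partner genes passed as well. The 6400 calls over all genes fell to 17 without WT_alpha3 45 and 79 and WT_beta 399 and 401. With the spinal cord list as a covariate they fell to 3964. Whether each partner gene below kept its call there was not examined. Of the coenzyme A genes 1 of 9 had a higher level in earlier embryos, Dcakd (0.25 per doubling), and 3 a lower one, Pank3 (-0.18), Slc5a6 (-0.19) and Pank1 (-0.11). Of the Lrrc4 list 3 of 8 passed, all lower, the netrin-G gene Ntng1 (-0.41), Lrrc4c (-0.32) and the receptor phosphatase Ptprf (-0.10). On the Shank list Homer3 passed as higher (0.15) and Dlg4 (-0.23), Homer2 (-0.24) and Dlgap3 (-0.32) as lower, while the slope of Shank1 itself, which did not pass, was 0.37. Filamin and integrin adaptors gave 4 of 15, with Fermt3, the kindlin of blood cells (1.06), and the talin gene Tln1 (0.22) higher and Fermt2, the kindlin that binds migfilin (-0.11), and Fblim1 lower. Shroom and actomyosin genes gave 3 of 10, with the myosin light chain Myl9 (0.38) and Rock1 (0.12) higher and Shroom2 (-0.34) lower. Fucosylation genes gave 2 of 10, both lower, Fut11 (-0.22) and the GDP-fucose transporter Slc35c1 (-0.15). Among thyroid hormone and organic anion genes, the thyroxine carrier and liver marker Ttr (1.52), the transporter Slc16a10 (1.16), the deiodinase Dio3 (0.73) and Slco4a1 (0.41) passed as higher. The transporters Slco2a1 (-0.40) and Slco3a1 (-0.34) and the receptor gene Thra (-0.34) passed as lower. None of the 3 isochorismatase genes passed.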

How the data were processed

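PolyA RNA sequencing counts of 16 libraries were analysed. The authors deposited whole-number counts per gene symbol, and a normalized signal that equals the count times 1 constant per library, which was checked and not otherwise used. Per the submitters' processing notes, build mm10 and the tools TopHat2 2.0.10, DESeq2 1.6.3, HTSeq 0.6.1p1, cutadapt and bcl2fastq 2.17.1.14 were involved, without roles. The sources used here give neither annotation nor strand setting. Counts were then fitted with edgeR 4.0.16 (R 4.3.3) using TMM scaling, filterByExpr (minimum count 10, total 15) and 2-sided quasi-likelihood tests, Benjamini-Hochberg adjusted over all genes at 0.05. Contrasts used all 16 libraries, with 3 groups where the wild types are pooled and 4 otherwise. Maturity slopes used 12. CPM are after TMM, and log2 CPM carry a prior count of 2. Permutation tests drew 100000 permutations, 2-sided. DESeq2 1.42.0, other scalings, filters, covariates and left-out libraries were alternatives. Positions come from GENCODE M21.

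The 8 genes, the partner and marker lists and the rules were chosen with earlier results of these data known. Named genes are the 8, the partner genes past the threshold in a tested comparison or with the lowest p there, and the 3 genes most like each of the 8. Further genes are named with values where a result turns on them. Scripts were tested on simulated data. A few partner genes are not reported here.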

Additional observations from a re-analysis of the deposited data

Results flagged for a closer look

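Coasy was the 1 gene of the 8 with a library far from the rest of its group. WT_alpha3 library 54 had 42.1 CPM, while the other 3 libraries of that group had 40.0 to 40.3 CPM, so the gap takes up 0.859 of the group's range. Checks covered 40 groups, and chance gives about 1 in 20, so a single such library among them is no more than chance gives. The gap of library 54 is smaller than the gap to the lowest importin α3 knockout, at 44.3 CPM.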

How the results depend on the processing

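No sign of the 8 genes changed in the 3 importin α3 comparisons under any alternative run, and Slco1c1 gave no value where a mean of 1 CPM was required. Counts of called genes did change. Against all wild types 1 gene was called, but 128 with DESeq2, 2804 in the libraries without Y-linked reads and 1 to 124 with 1 library left out, the most without KO_alpha3 library 50. Against own wild types 1 became 3 with DESeq2. Against the importin β1 knockouts 5 became 42 with DESeq2, 10 without the 4 wild-type libraries that stood apart and 3 to 32 with 1 library left out, the most without KO_alpha3 library 50. The 6400 maturity slopes became 17 without those 4 libraries, 3964 with the spinal cord list as a covariate and 3005 to 7577 with 1 library left out, the fewest without WT_alpha3 library 79. The 3 calls between wild types became 32 with DESeq2, 5 with the Y-linked and 5 with the globin covariate, and 2 to 7 with 1 library left out. The 0 calls of the importin β1 knockouts became 5 with DESeq2 and 2 with the Y-linked covariate. The 4 calls for a difference of slopes became 81 with upper quartile scaling, 104 with library size alone, 0 with no filter and 0 to 222 with 1 library left out, the most without WT_alpha3 library 45. The cause of these changes was not tested. The Fblim1 maturity slope reversed to 0.017 without the 4 libraries and lost its call (edgeR adjusted p = 0.083 with upper quartile scaling, 0.065 with library size alone, 0.056 with the Y-linked covariate, 0.290 with the spinal cord covariate and 0.063 in the 8 wild types alone). No paired analysis was possible because no library number is shared between groups. An index from the α-globins was not run, since Hba-a1 and Hba-a2 are listed at 0 in all libraries. Counts of 4 to 39 limit Slco1c1, and the spread of wild-type libraries limits Shank1, Lrrc4b and Fut9.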
